A study of Mus musculus with 3 samples.

Results

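The genes described here are the metalloproteases of the mouse aorta and their tissue inhibitors, as read on oligonucleotide arrays of aortas labelled Plk1(+/-). They were taken by name from the scanner output: every non-control probe whose gene symbol starts with Mmp or Timp and a digit, or with Adam. That rule gave 77 genes and 134 probes, out of 20825 gene symbols and 41174 probes on the array. It used names only and no measured value, but the members were chosen with earlier results of these data known. The aortas labelled Plk1(+/-) came from 3 individual animals and carry 1 mutant copy of Plk1, the gene of a kinase that drives mitosis. They were set against a single pool of 3 wild-type aortas, labelled WT and, in the design text, Plk1(+/+). All animals were of strain 129/CD1 and 3 to 5 months old. Each of the 3 arrays, all on 1 slide, held 1 Plk1(+/-) sample in Cy5 and the pool in Cy3. Dyes were never swapped, so dye and genotype cannot be told apart. The pool is 1 control sample, which leaves the spread between wild-type animals out of every test. The part of the Plk1 allele that was interrupted is not given in the sources used here, and the labels carry a growth protocol for embryonic stem cells although they name the tissue as aorta.

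Matrix metalloproteinases (MMPs) are zinc-dependent endopeptidases that cut collagen, elastin, proteoglycans and other proteins of the extracellular matrix, and most are made as inactive proenzymes. Tissue inhibitors of metalloproteinases (TIMPs) block them by binding the active site. ADAM proteases sit in the cell membrane and release the outer part of growth factors, cytokines and receptors, while the secreted ADAMTS proteases trim procollagens and cut large proteoglycans, and the ADAMTS-like proteins share their accessory domains without the protease. In arteries the balance of these enzymes and inhibitors is known for its part in the turnover of the wall and in aneurysm.

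Ratios are given as log2 of the Plk1(+/-) sample over the wild-type pool, negative where the sample labelled Plk1(+/-) had less signal. Probe spots were well above background for 80.3%, 77.0% and 80.8% in Cy5 and for 66.0%, 69.0% and 68.0% in Cy3 on the arrays of samples 1, 2 and 3. Precision is limited by having 3 arrays. Plk1 itself read -0.06, -0.08 and 0.42, a mean of 0.10 ± 0.28 (SD, n = 3; limma adjusted p = 0.705). Plk1 therefore did not check the labels, and directions refer to samples by their label. Of the smooth muscle markers, 6 of 6 were measured and none was at 0. That does not check the aorta label, because other tissues with smooth muscle would give signal too. Their processed signals summed to 143739 to 198352 units in the Plk1(+/-) samples and 406789 to 480286 units in the pool, 3 of the 6 on saturated spots. The median log2 ratio of the 3 unsaturated ones was -0.25, -1.73 and -0.85 in samples 1, 2 and 3. Adventitial fibroblast markers (8 of 8 measured) had medians of -0.18, -0.42 and -0.13 over the 7 unsaturated ones, and all 8 summed to 110271 to 121388 units in the Plk1(+/-) samples and 174871 to 232032 units in the pool. Skeletal muscle markers, 6 of 6 measured, summed to 24962 to 98140 units in the Plk1(+/-) samples and 162574 to 190837 units in the pool, with a median of -3.06 in sample 3. Lymphocyte markers, 7 of 7 measured, summed to 4713 to 22171 units in the Plk1(+/-) samples and 3956 to 4714 units in the pool, with medians of 0.16, 1.47 and 2.12. Fat markers, 4 of 4 measured and all on saturated spots, summed to 174781 to 195488 units in the Plk1(+/-) samples and 417328 to 466333 units in the pool. Nerve markers, 5 of 5 measured, summed to 6550 to 18240 units in the Plk1(+/-) samples and 7819 to 8262 units in the pool, with medians of 1.03, 0.46 and -0.06. The part of these shifts in the results below was not tested, and in bulk aorta fewer cells of a type and less RNA per cell cannot be told apart.

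Of the 77 genes, 70 had a probe that stood well above background, in Cy5 or Cy3, on 2 arrays or more and were tested. None of the 70 passed an adjusted p of 0.05 in limma, with 0.0823 for Adam33 as the lowest value. Of all 22087 features 0.924% did, 172 of the 204 on saturated spots, and of the 21558 features without a saturated spot 0.148% did. No member probe had a saturated spot. At an unadjusted p under 0.05, 24 of the 70 (34.3%) were counted, against 19% of all features. Of these, 20 were lower in the Plk1(+/-) samples, where 9.79% of all features were lower by the same rule. The other 4 were higher, against 9.17% of all features, and 1 of the 4, Adam7, had passed the background filter only through the Plk1(+/-) samples' own dye and gives no support. The ratio lay below 0 on all 3 arrays for 23 members (19.1% of all features) and above 0 on all 3 for 12 (26.3% of all features). Among the 20 lower ones, 16 had their lowest ratio in sample 2, as did 35 of all 70 members. The share over all features was not computed. The medians of the smooth muscle, adventitial fibroblast and fat markers were also lowest in sample 2, and that of the skeletal muscle markers in sample 3. The median ratio of the 70 was -0.03, beside 0.04 over all features.

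The lower ratios stood mostly on bright probes. A probe's mean log2 level over both dyes depends on the probe, so it is used here to sort measurements by brightness and not to rank genes. On probes with a level over 10 there were 21 members, of which 12 had an unadjusted p under 0.05, all 12 lower, and their median ratio was -0.36. Among all 8407 features of that brightness, 22.3% had such a p, 1145 features lower and 726 higher, and the median was 0.01. These features include saturated ones, while no member probe was saturated. On probes with a level of 8 to 10 there were 15 members, 5 with an unadjusted p under 0.05 (19.3% of all features of that brightness) and a median of 0.02. On probes under a level of 8 there were 34 members, 7 with an unadjusted p under 0.05 and a median of 0.00308, beside 15.3% and 0.06 over all features of that brightness.

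**Figure D1:**
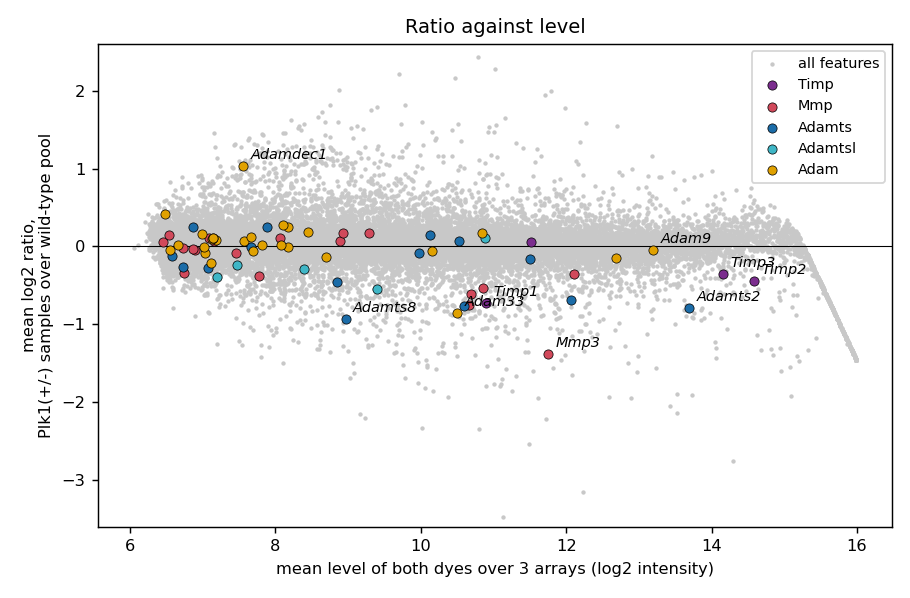
Mean log2 ratio of the Plk1(+/-) samples over the wild-type pool (y axis) against the mean log2 level of both dyes over 3 arrays (x axis). Grey points are all 22087 features and coloured points the 70 tested members by family. The 21 members with a level over 10 have a median of -0.36, and the falling edge at the right is made of saturated spots, none of them a member's.

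Mmp3 had the largest mean ratio below 0 of the 70. It encodes stromelysin 1, which cuts proteoglycans and activates other pro-MMPs. Processed signals of Mmp3 were 3474, 1895 and 2425 units in the 3 Plk1(+/-) samples, against 6176, 7134 and 7225 units in the pool on the same arrays. Each Plk1(+/-) sample lay below each reading of the pool, and sample 2 was lowest. The pool readings, here and below, repeat 1 control sample, and the share of all features without overlap was not computed. The log2 ratios were -0.76, -1.90 and -1.49, a mean of -1.38 ± 0.58 (SD, n = 3), or 2.61-fold lower, with a limma adjusted p of 0.134. Over all alternatives the mean ran from -1.70 to -0.95 and the adjusted p from 0.0411 to 0.503.

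Mmp2, Mmp14 and Timp2 are linked in the textbook account of pro-MMP2 activation, in which the membrane-type enzyme Mmp14 and the inhibitor Timp2 form a complex with the gelatinase Mmp2 at the cell surface. Mmp2 gave 1928, 1697 and 1929 units in the Plk1(+/-) samples, against 2734, 3089 and 3091 units in the pool. The Plk1(+/-) samples lay below all readings of the pool and differed least from it on array 1. Its ratios of -0.42, -0.84 and -0.58 averaged -0.61 ± 0.21 (limma adjusted p = 0.133), 1.53-fold lower. Mmp14 gave 4420, 4520 and 6559 units in the Plk1(+/-) samples and 5968, 6033 and 7460 units in the pool, so the signal of sample 3 lay above the lowest readings of the pool. With ratios of -0.44, -0.43 and -0.21 it averaged -0.36 ± 0.13 (limma adjusted p = 0.178), and a second Mmp14 probe averaged -0.34. Mmp14 turned to 0.09 under median centring, a scaling described at the end.

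Other membrane-type MMPs differed among themselves. Mmp17, a membrane-type enzyme held by a lipid anchor, had 1458, 951 and 1449 units in the Plk1(+/-) samples, against 2074, 2153 and 2385 units in the pool. Sample 2 was lowest, and no sample reached a reading of the pool. The Mmp17 mean ratio was -0.76 ± 0.36 (limma adjusted p = 0.167), and a second probe read -0.59, -1.22 and -0.78 with a mean of -0.87. Mmp16 averaged -0.38 ± 0.16, lower in all 3 samples. Mmp15 read 0.45, 0.17 and -0.11, and Mmp24, a brain-enriched enzyme, read 0.13, 0.10 and -0.0024, so neither had 1 sign. Mmp23, a membrane-bound MMP without the usual haemopexin domain, averaged -0.53 ± 0.23 with ratios of -0.66, -0.67 and -0.27.

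The remaining tested MMPs had no lower call even at the unadjusted level. Mmp11, stromelysin 3, read 0.72, -0.23 and 0.00448, so its mean of 0.17 rests on sample 1 and was -0.11 without it. Mmp9, the second gelatinase, averaged -0.09 ± 0.23, with 101, 176 and 173 units in the Plk1(+/-) samples and 166, 161 and 189 units in the pool. Mmp19 (0.06), Mmp28 (0.11) and Mmp21 (-0.04) had mean ratios smaller than their SDs of 0.20, 0.23 and 0.16.

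**Figure D2:**
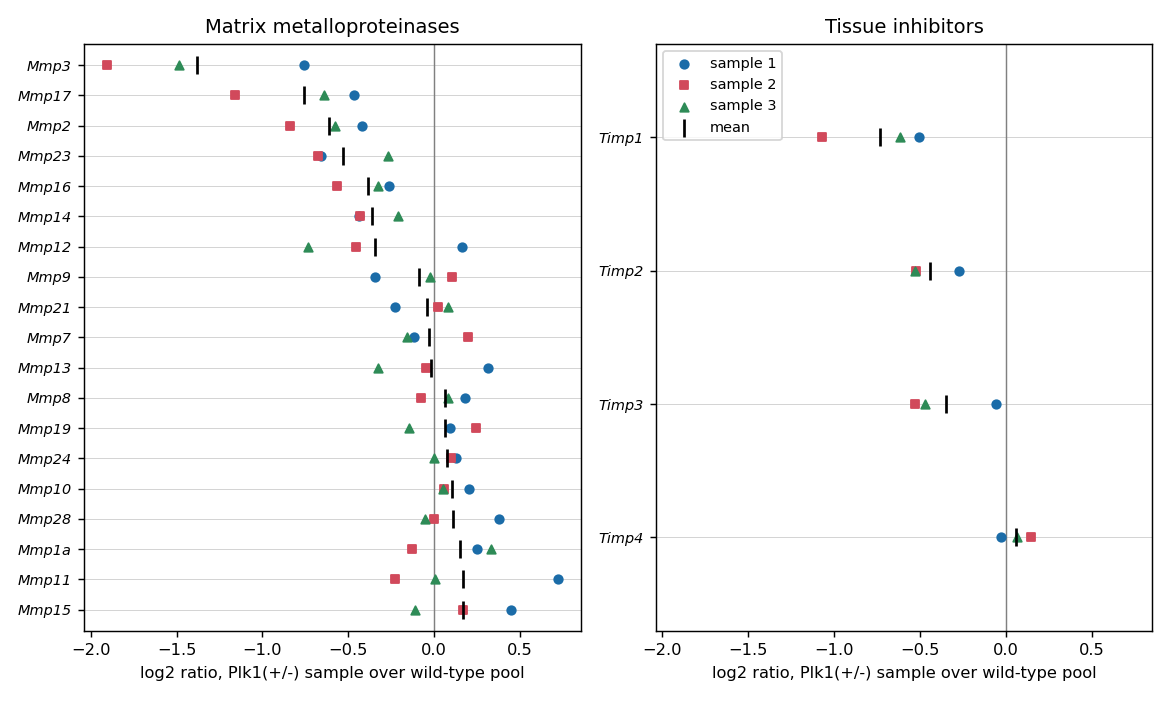
Log2 ratio of each Plk1(+/-) sample over the wild-type pool for 19 tested MMP genes (left) and 4 TIMP genes (right). Symbols are samples 1 to 3 and the black bar is their mean. Mmp3, Mmp17, Mmp2, Mmp23, Mmp16, Mmp14, Timp1, Timp2 and Timp3 lie left of 0 in all 3 samples, and under median centring the means of Mmp14, Timp2 and Timp3 turn to 0.09, 0.05 and 0.14.

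Mmp3 belongs to a cluster of 10 Mmp genes on chromosome 9. Of the 10, 8 hold TGANTCA, a loose form of the AP-1 element with any base at N, close before their start. AP-1 is the Fos and Jun dimer, a known activator of MMP promoters. The letters TGANTCA, read on both strands, occur in the windows of 8 of the 10 cluster genes. Mmp20 holds TGAATCA, while the other stretches below hold TGAGTCA or TGACTCA. They occur in 7.81% of 32851 mouse promoter windows of the same length (250 bases before to 50 after the start, RefSeq, GRCm38.p6). For Mmp8 and Mmp27 no letters were found, and whether each had a window was not recorded. The stretches around the letters are shown because they place Mmp3 beside its neighbours. Each runs 5′ to 3′ on the gene's strand, in order along the chromosome, and capitals mark the letters.
Mmp13: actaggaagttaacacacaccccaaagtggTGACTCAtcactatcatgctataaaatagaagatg
Mmp12: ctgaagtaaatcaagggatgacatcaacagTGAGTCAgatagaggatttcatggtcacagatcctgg
Mmp1b: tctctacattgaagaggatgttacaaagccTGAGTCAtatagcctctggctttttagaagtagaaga
Mmp3: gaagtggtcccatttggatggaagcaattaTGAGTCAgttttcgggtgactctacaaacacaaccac
Mmp1a: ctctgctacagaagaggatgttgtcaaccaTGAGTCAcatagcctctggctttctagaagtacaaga
Mmp10: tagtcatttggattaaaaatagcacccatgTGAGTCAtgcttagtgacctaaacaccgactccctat
Mmp20: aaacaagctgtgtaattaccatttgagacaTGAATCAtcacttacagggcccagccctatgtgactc
Mmp7: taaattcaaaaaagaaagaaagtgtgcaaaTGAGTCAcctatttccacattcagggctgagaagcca

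The Mmp3 stretch lies at chr9:7445746-7445812 and its letters begin 46 bases before the annotated start, while in the others they begin between 35 (Mmp13) and 95 bases (Mmp20) before it. Of the cluster, 8 genes had a probe and 7 were tested. The 6 tested beside Mmp3 (Mmp13, Mmp12, Mmp1a, Mmp10, Mmp8 and Mmp7) gave processed signals of 5.35 to 80.3 units in the Plk1(+/-) samples and 11.4 to 90.2 units in the pool. For Mmp1a, Mmp7 and Mmp8 the pool was not well above background on any array. Mmp12, the macrophage elastase, read 0.17, -0.46 and -0.74, Mmp13, a collagenase, averaged -0.02 and Mmp10, stromelysin 2, averaged 0.10, and none of the 6 had an unadjusted p under 0.05. Over all tested members with a promoter window, 9 of 41 held the letters. Of the 12 lower members (unadjusted) with a window, Mmp3 alone held them. A match describes letters and not a bound site.

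All 4 TIMP genes were tested, and 3 of them were lower at the unadjusted level (9.79% of all features). Timp1, a broad inhibitor that is induced in tissue repair, gave 1622, 1505 and 1750 units in the Plk1(+/-) samples, against 2409, 3160 and 2866 units in the pool. No Timp1 reading of a Plk1(+/-) sample reached those of the pool. Its ratios of -0.50, -1.07 and -0.62 averaged -0.73 ± 0.30 (SD, n = 3; limma adjusted p = 0.149), 1.66-fold lower, and its other probes averaged -0.52 and -0.41.

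Timp2 read 30773, 26768 and 23741 units in the Plk1(+/-) samples and 39669, 41117 and 36568 units in the pool. The Plk1(+/-) readings were again all below those of the pool. The Timp2 mean ratio was -0.44 ± 0.15 (limma adjusted p = 0.156). Timp3, the TIMP that binds to the matrix and also inhibits ADAM17 and aggrecanases, read 19376, 19687 and 19919 units in the Plk1(+/-) samples and 20736, 29361 and 28386 units in the pool. Sample 1 stood close to the pool on its own array, with a ratio of -0.06, whereas samples 2 and 3 gave -0.53 and -0.47. The Timp3 mean was -0.35 ± 0.26 (limma adjusted p = 0.244). Timp4, known from heart and vessel, had ratios of -0.03, 0.15 and 0.07. Timp1, Timp2 and Timp3 were below 0 in samples 1, 2 and 3, as were the MMPs counted as lower. Both sets were picked as lower, so the shared sign shows no link between inhibitors and enzymes. Timp2 and Timp3 turned to 0.05 and 0.14 under median centring, where the median over all features was 0.23.

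**Figure D3:**
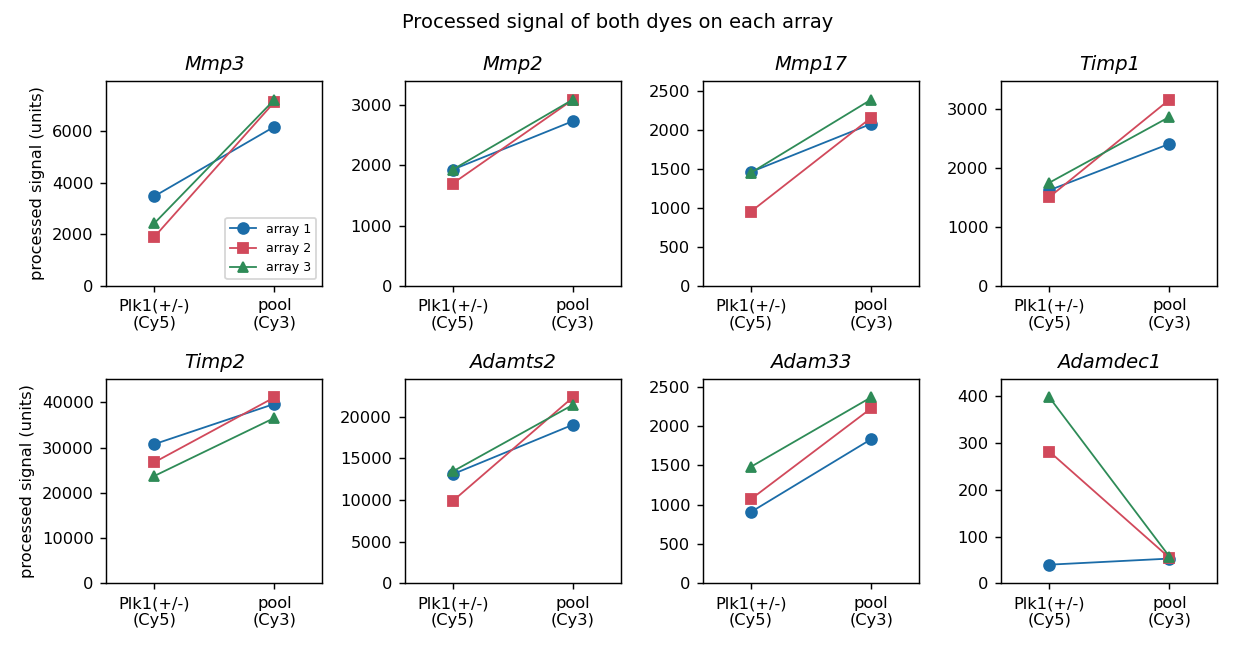
Processed signal in units (y axis, from 0) for 8 member genes, with the Plk1(+/-) sample (Cy5) left and the wild-type pool (Cy3) right, lines joining both dyes of 1 array. For Mmp3, Mmp2, Mmp17, Timp1, Timp2, Adamts2 and Adam33 every line runs up to the pool, and Adamdec1 runs down steeply on arrays 2 and 3 only.

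Of 15 tested ADAMTS genes, 7 were lower and 1 higher at the unadjusted level (9.79% and 9.17% of all features). Adamts2, the main procollagen N-propeptidase, gave 13084, 9867 and 13416 units in the Plk1(+/-) samples, against 19013, 22304 and 21398 units in the pool. Sample 2 was lowest, and no sample reached a reading of the pool. The mean ratio was -0.79 ± 0.35 (limma adjusted p = 0.153), 1.73-fold lower. Its other 3 probes, all dimmer, averaged -0.49, -0.28 and -0.0036, so the size depends on the probe. Adamts3, the related procollagen protease, averaged -0.26 ± 0.17 on a dim probe, with the pool well above background on 1 array. It gave 106, 20.1 and 36.2 units in the Plk1(+/-) samples and 99.6, 47.6 and 16.6 units in the pool. In these units samples 1 and 3 lay above the pool on their own arrays.

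Most proteoglycan-cutting ADAMTS enzymes were lower or even. Adamts20, above 0 in every sample, and Adamts4, of mixed sign, are given further below. Adamts8 read 651, 274 and 619 units in the Plk1(+/-) samples and 951, 1030 and 1168 units in the pool, with ratios of -0.44, -1.58 and -0.77 and a mean of -0.93 ± 0.59 (limma adjusted p = 0.198). A second Adamts8 probe averaged -0.97. Adamts15 averaged -0.76 ± 0.35, with -0.91 and -1.02 in samples 1 and 2 and a smaller difference of -0.37 in sample 3.

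Adamts1, which cuts versican and aggrecan, differed from most in its order of samples. It gave 2665, 5745 and 6621 units in the Plk1(+/-) samples, against 6600, 8382 and 8218 units in the pool. Sample 1 was lowest, at -1.23, before -0.55 and -0.27, and the second probe read -0.84, -0.29 and -0.40. Its mean was -0.68 ± 0.50 (limma adjusted p = 0.225). Adamts5, the aggrecanase also found in vessel wall, averaged -0.16 ± 0.17, and Adamts9 averaged -0.09 ± 0.27, both within their spread.

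Adamts10, a protease tied to fibrillin microfibrils, had the narrowest spread of the lower genes. Its ratios were -0.47, -0.47 and -0.43, a mean of -0.46 ± 0.03 (limma adjusted p = 0.0965), while its other probes averaged -0.16 and -0.03. Adamts6 averaged -0.27 ± 0.18 on a dim probe. It gave 78.2, 61.2 and 141 units in the Plk1(+/-) samples and 75.9, 113 and 126 units in the pool. In these units samples 1 and 3 of Adamts6 lay above the pool on their own arrays. Adamts7, which cuts cartilage oligomeric matrix protein, was the ADAMTS gene counted as higher, at 0.40, 0.19 and 0.14 (mean 0.24 ± 0.14, limma adjusted p = 0.245), and its second probe averaged 0.23. Adamts20 averaged 0.26 ± 0.20, on a probe with 47 to 74 units in either dye.

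Among the 5 ADAMTS-like genes, 3 were lower at the unadjusted level (9.79% of all features). Adamtsl5 averaged -0.54 ± 0.19 (limma adjusted p = 0.15), with 682, 555 and 582 units in the Plk1(+/-) samples and 943, 1004 and 907 units in the pool. All Adamtsl5 readings of the Plk1(+/-) samples were below those of the pool. Adamtsl2 and Adamtsl4, which bind fibrillin microfibrils, averaged -0.39 ± 0.24 and -0.29 ± 0.10. Adamtsl1 averaged -0.24 ± 0.26 without 1 sign.

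**Figure D4:**
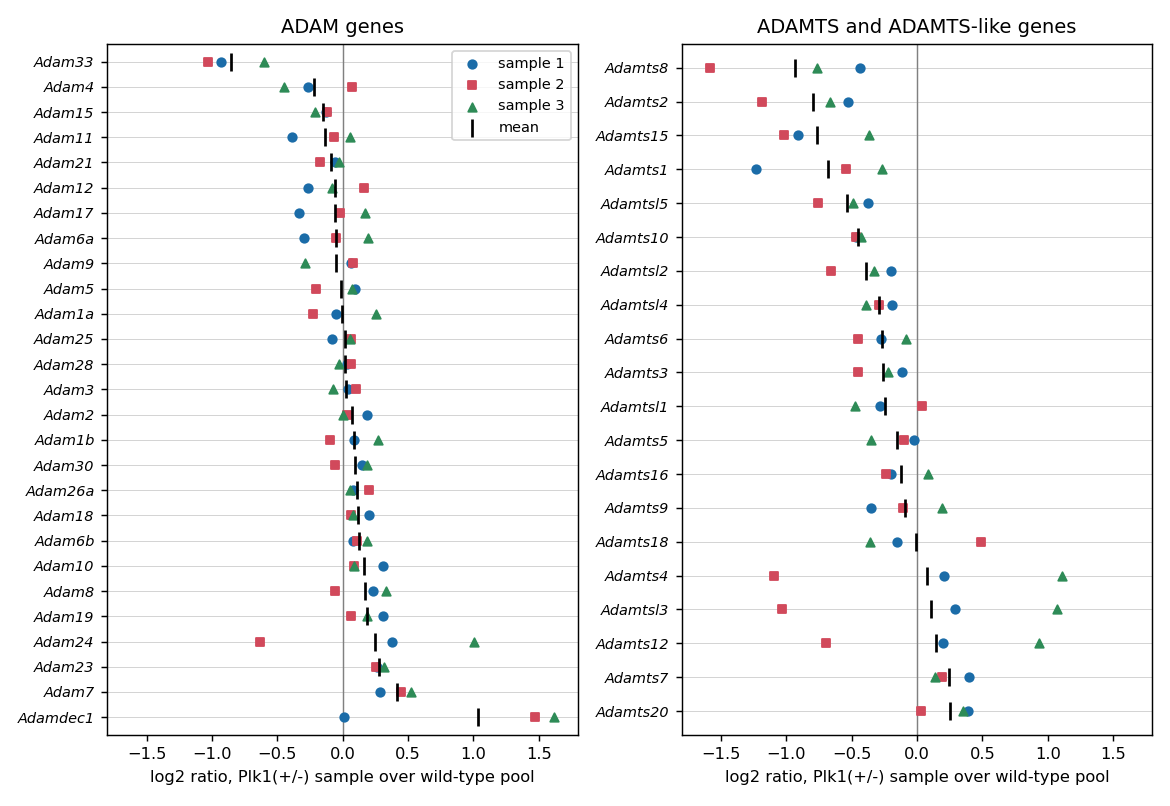
Log2 ratio of each Plk1(+/-) sample over the wild-type pool for 27 ADAM genes (left) and 20 ADAMTS and ADAMTS-like genes (right). Symbols are samples 1 to 3 and the black bar is their mean. Most ADAM genes sit around 0, and Adamts4, Adamtsl3, Adamts12 and Adam24 spread in 1 order, sample 2 left of 0 and sample 3 far right.

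Of 27 tested ADAM genes, 1 was lower and 3 higher at the unadjusted level (9.79% and 9.17% of all features), with a median of 0.02. One of the 3 is Adam7. The sheddases Adam17, which releases TNF, and Adam10, which cuts Notch and its ligands, averaged -0.06 ± 0.26 and 0.16 ± 0.13. Adam9 had 15314, 17684 and 14371 units in the Plk1(+/-) samples and 15589, 17388 and 18134 units in the pool, which overlapped. Adam15 averaged -0.15 ± 0.05, Adam8 0.17 ± 0.20 and Adam19 0.19 ± 0.12, none with an unadjusted p under 0.05.

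Adam33, an ADAM of mesenchymal cells such as smooth muscle and fibroblasts, was the lower one. It gave 908, 1072 and 1483 units in the Plk1(+/-) samples, against 1833, 2225 and 2365 units in the pool. All readings of the Plk1(+/-) samples were below those of the pool. The ratios were -0.93, -1.03 and -0.60, a mean of -0.86 ± 0.22 (SD, n = 3), 1.81-fold lower. Dimmer Adam33 probes averaged -0.29 and -0.23.

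Adamdec1, a secreted ADAM-like protease of mononuclear phagocytes and lymphoid tissue, showed the largest mean ratio above 0, carried by 2 samples. It gave 39.97, 281 and 397 units in the Plk1(+/-) samples, against 52.9, 54.6 and 57.2 units in the pool. Samples 2 and 3 were high, and sample 1 lay below the pool's reading on its array in these units. The loess-normalized ratios were 0.01, 1.47 and 1.62, a mean of 1.03 ± 0.89 (limma adjusted p = 0.248). In the same samples the medians of the lymphocyte markers were 0.16, 1.47 and 2.12, and those of the macrophage markers, 6 of 6 measured, were 0.03, -0.05 and 0.18. The macrophage markers summed to 12156 to 15685 units in the Plk1(+/-) samples and 11900 to 14035 units in the pool. Without sample 1 the mean was 1.54 ± 0.10 (n = 2) and the limma adjusted p 0.0404, the only member called there, where 0.792% of all features were. Over all alternatives the adjusted p of Adamdec1 ran from 0.0404 to 0.607.

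Adam23 and Adam7, both without an active protease site, were the other ADAM genes with a mean above 0 and an unadjusted p under 0.05. Adam23 read 0.26, 0.25 and 0.32 (mean 0.28 ± 0.04, limma adjusted p = 0.182), and its second probe averaged 0.47. Adam7, an epididymal gene, was not well above background in the pool on any array and was above it in the Plk1(+/-) samples on 2 of 3 arrays. It passed the filter only through Cy5, so its ratios of 0.29, 0.44 and 0.52 are a description, and its mean turned to -0.11 under median centring. The 12 ADAM genes known from the germ line, or with no role given here, had a median of 0.02 and no unadjusted p under 0.05.

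The genes Adamts4, Adamtsl3, Adamts12 and Adam24 formed a separate pattern, slightly above 0 in sample 1, far below 0 in sample 2 and far above 0 in sample 3. Adamts4, an aggrecanase with 1 probe, gave 1979, 883 and 4817 units in the Plk1(+/-) samples, against 1659, 1971 and 2163 units in the pool. Its ratios were 0.21, -1.10 and 1.11, so a mean of 0.07 ± 1.11 describes none of the samples. Adamtsl3 read 0.29, -1.03 and 1.07, Adamts12 0.20, -0.70 and 0.93, and Adam24, a testis gene, 0.38, -0.63 and 1.00.

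The probes that gave these values share letters. Each holds at least 7 consecutive letters of the repeat CCCTAA, the C-rich strand of the telomere repeat of mammals, within its 60 bases. They are printed 5′ to 3′ as in the scanner files, with those letters in capitals. The Adamts10 and Mmp14 probes follow, which hold such letters without the pattern. So do the second Mmp14 probe and the dim Adamts2 probe with ratios of 0.22, -0.03 and -0.21, not printed. Of 8 kept member probes with such a run, 4 had the pattern.
Adamts4: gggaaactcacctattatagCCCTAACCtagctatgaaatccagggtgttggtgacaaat
Adamtsl3: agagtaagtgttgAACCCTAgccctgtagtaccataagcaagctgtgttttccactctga
Adamts12: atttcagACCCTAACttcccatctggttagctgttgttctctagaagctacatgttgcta
Adam24: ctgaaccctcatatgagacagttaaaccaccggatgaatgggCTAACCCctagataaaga
Adamts10: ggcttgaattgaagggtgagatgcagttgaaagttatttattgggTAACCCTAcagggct
Mmp14: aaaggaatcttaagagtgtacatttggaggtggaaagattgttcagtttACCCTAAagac

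In mm7, the build of the files, the Adamts4 probe lies at chr1:171229633-171229692, that of Adamtsl3 at chr7:78387361-78387420, that of Adamts12 at chr15:11406886-11406945 and that of Adam24 at chr8:39472255-39472314. Exon and intron positions were not analysed here. The other kept probes of Adamtsl3 and Adamts12 lacked both the letters and the pattern. The second Adamtsl3 probe read -0.40, -0.83 and -0.31, and the dimmer Adamts12 probes averaged -0.0024 and 0.04. The Adamts15 probe and the second Adamtsl3 probe hold runs of the opposite, G-rich strand, given in capitals for comparison, and both read below 0 in all 3 samples. A further kept probe with 7 G-rich letters, the second of Adamts18, read 0.03, 0.13 and -0.11, also without the pattern.
Adamts15: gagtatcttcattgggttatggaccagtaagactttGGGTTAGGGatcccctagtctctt
Adamtsl3, second probe: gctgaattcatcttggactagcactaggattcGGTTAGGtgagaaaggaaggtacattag

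The same held beyond the members. With the pattern written as a ratio under -0.5 in sample 2 and over 0.5 in sample 3, it was found in 196 of 32497 kept probes (0.603%), limits set after the member values were seen. Of the 196, 135 (68.9%) held a C-rich run of 7 or more letters, which 1.46% of kept probes did. The share with the pattern was 0.19% for runs up to 6 letters, 16.8% for 7, 57.3% for 8 and 68.8% for 9 to 12 letters. For G-rich runs it was 0.752% at 7 letters, and no probe among 51 with 8 letters and 20 with 9 to 14 showed it. Medians of probes with 8 C-rich letters were 0.25, -0.68 and 0.91 in samples 1, 2 and 3. The cause of this link with the probe letters was not tested.

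**Figure D5:**
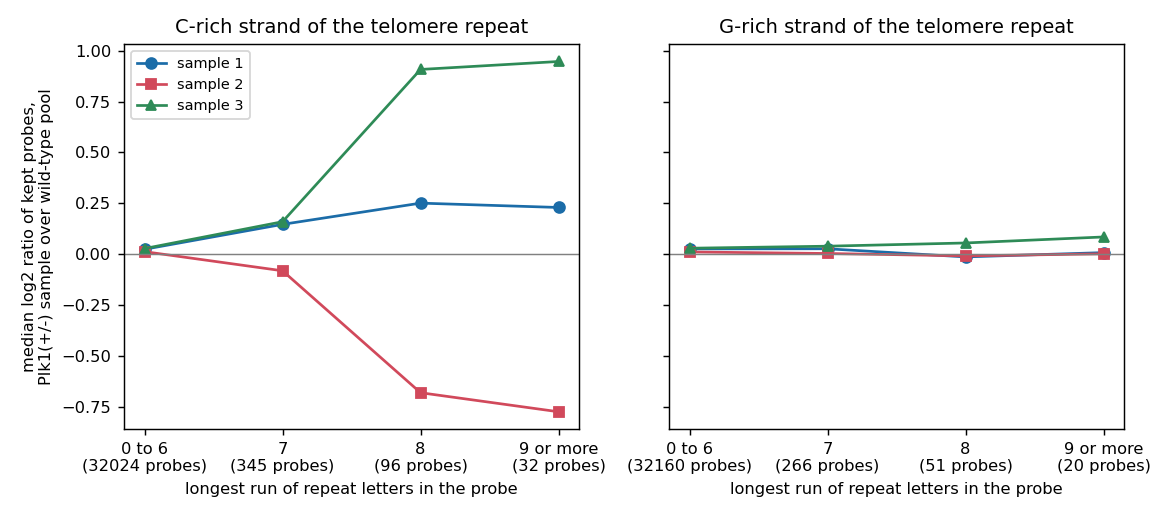
Median log2 ratio of kept probes (y axis) by the longest run of telomere repeat letters in the probe (x axis, number of probes in brackets), for the C-rich strand (left) and the G-rich strand (right), each line 1 Plk1(+/-) sample over the wild-type pool. With 8 C-rich letters the medians part to 0.25, -0.68 and 0.91, and with 8 G-rich letters they stay between -0.01 and 0.05.

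Of the members, 6 genes were read from a probe with such a C-rich run, Adamts4, Adamtsl3, Adamts12, Adam24, Adamts10 and Mmp14. Leaving out all such probes, a step chosen after seeing the data, kept 67 members, 0 of them called by limma and 23 at the unadjusted level. Adamtsl3 then read -0.51. Versican (Vcan), the large aortic proteoglycan that Adamts4 and Adamts1 cut, was read from a probe of the same kind. Its ratios were 0.44, -0.82 and 1.06. Other genes of the lists below that were read from such probes did not reach both limits of the pattern.
Vcan: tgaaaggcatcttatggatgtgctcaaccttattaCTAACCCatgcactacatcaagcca

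Substrates, regulators and shed proteins of the pathway were followed from lists chosen with earlier results known, and none of their genes passed the adjusted test. Of 12 substrates of the proteoglycanases and related matrix proteins, 8 were lower and 0 higher at the unadjusted level (9.79% and 9.17% of all features), with a median of -0.50. Fibronectin (Fn1) read -1.02, -1.07 and -0.69, a mean of -0.93 ± 0.21 (limma adjusted p = 0.0625). The small proteoglycan biglycan (Bgn) averaged -1.17 ± 0.44 and the cartilage oligomeric matrix protein gene Comp -0.99 ± 0.34. Decorin (Dcn) was saturated and gets no fold.

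Of 31 regulators, 9 were lower and 1 higher at the unadjusted level (9.79% and 9.17% of all features), with a median of -0.04. The procollagen C-protease enhancer gene Pcolce2 averaged -0.64 ± 0.15 (limma adjusted p = 0.0917). Serpine2, a secreted inhibitor of serine proteases, averaged -0.89 ± 0.39, and Lrp1, the receptor that clears proteases with their inhibitors, averaged -0.43 ± 0.09. Of 4 tested astacins, the other secreted metalloprotease family, Bmp1, the procollagen C-proteinase, averaged -0.36 ± 0.08 and was lower. Mep1a (-0.10), Astl (0.03) and Tll1 (0.02) had means near 0.

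Of 21 tested proteins shed by ADAMs, 5 were lower and 2 higher at the unadjusted level (9.79% and 9.17% of all features). The growth factor gene Hbegf averaged -0.58 ± 0.27 and the chemokine gene Cx3cl1 -0.46 ± 0.24. Tnf averaged 0.31 ± 0.07.

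Several members could not be read or gave more than 1 answer. Adam22, Adam29, Adam32, Adamts13, Adamts19, Mmp20 and Mmp25 had no probe that passed the background filter. Besides Adam7, the pool was not well above background on any array for Adam25, Adamts16, Mmp1a, Mmp7 and Mmp8. No fold is given for these 5. Signed means listed for any of them below describe readings near background, and no direction is read from them. Of 31 members with more than 1 kept probe, 11 had probes of opposite sign: Adam12, Adam1b, Adam5, Adamts12, Adamts16, Adamts18, Adamts20, Adamts5, Adamts9, Adamtsl3 and Mmp1a. Of the 20 lower genes, 10 had more than 1 kept probe, and in all 10 the mean of every kept probe was below 0. The share over all features was not computed for this count. Some of these means were near 0, such as -0.0036 for an Adamts2 probe and -0.03 for an Adamts10 probe, both of mixed sign among the samples. For that Adamts10 probe the pool was not well above background on any array.

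The scaling of the arrays set how many genes were called. Under median centring in place of loess, the median over all features moved to 0.23 from 0.04, and 44.3% of all features were called, 7155 higher and 2629 lower, against 8 higher and 196 lower with loess. Of the members, 7 were then called higher and 10 lower, with Mmp3 (-0.95) and Adam33 (-0.48) among the lower and Timp4 (0.49) and Adam9 (0.43) among the higher. The lower ones also included Adam25, Adamts16, Mmp1a and Mmp8, whose pool signal was not well above background on any array. Relative to that shifted median, 15 of 19 MMP genes, 3 of 4 TIMP genes, 19 of 27 ADAM genes, 10 of 15 ADAMTS genes and 4 of 5 ADAMTS-like genes lay below it. With loess the counts below the median of all features were 11, 3, 14, 11 and 4 in the same order of families.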

How the data were processed

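Agilent Feature Extraction 9.5.3.1 made the deposited spot intensity values, per the file headers. Their log ratio, log10 of processed Cy5 against Cy3, was computed after background subtraction and dye normalization, per the file headers. The authors' series values are log2, for 28817 probes, with slopes of 0.997, 0.999 and 0.998 against that ratio and medians of -0.02, -0.0052 and -0.03; their centring is not given in the sources used here. The labels call the samples biological replicates.

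In limma 3.58.1 (R 4.3.3; files read by data.table, release 1.17.8), mean signals were background-corrected (normexp, offset 50) and loess-normalized, giving control spots weight 0. Outlier-flagged spots were dropped, spots of a probe averaged, and probes kept if well above background in either dye on 2 or more arrays. A gene was read from its brightest probe. Two-sided limma tests (lmFit, eBayes) set ratios against 0, with Benjamini-Hochberg adjustment over 22087 features, after a check on simulated data. Symbols were updated through GRCm38.p6; 100 member probes matched by accession, 32 by current symbol and 2 by synonym. Probe positions are in mm7.

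Named genes were Plk1, all tested Mmp and Timp genes, Adam10, Adam17, Adamts1, Adamts4, Adamts5, further members with the smallest p, members with discordant probes, and up to 4 genes per list. Adam8, Adam9, Adam24, Adamts3 and Vcan fall outside this rule and were chosen after their values were seen. Members and lists were chosen with earlier results of these data known. Some list genes are not reported here.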

Additional observations from a re-analysis of the deposited data

How the results depend on the processing

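No paired analysis was possible because the labels give 1 group against 1 pool that sits on every array. The count of members called by limma stayed at 0 under all alternatives except median centring (17 called) and leaving out 1 sample (0 to 1). The number at an unadjusted p under 0.05 in limma ran from 17 to 27 over all alternatives. The 27 (38.6%) came under median centring, where 57.5% of all features had such a p, a larger share than of the members. The 17 (24.3%) came without sample 2 and without sample 3, where 8.99% and 14.1% of all features did. The members' median of -0.03 became -0.065 under median centring, -0.074 with the deposited log ratio and -0.10 with the authors' series values, and -0.11 to 0.0096 with 1 sample left out. Over all features, 204 calls became 9784 under median centring, 125 with the deposited log ratio, 135 with normexp offset 16, 0 without saturated features (3814 at an unadjusted p under 0.05 in limma) and 0 to 175 with 1 sample left out. The count of 0 came without sample 2 (1985 at an unadjusted p under 0.05 in limma) and without sample 3 (3103). Without saturated features fewer features enter the fit, and the lowest adjusted p of a member was 0.223. The causes of the other changes were not tested. Signal over background limits the 6 members whose pool signal was not well above background on any array.

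Of the named genes, these changed sign. Under median centring the means were -0.061 for Adam10, 0.32 for Adam15, 0.30 for Adam17, -0.050 for Adam1b, -0.11 for Adam7, 0.014 for Adamts18, -0.034 for Adamts20, 0.27 for Adamts5, 0.25 for Adamts9, -0.28 for Astl, 0.029 for Bmp1, 0.036 for Lrp1, 0.15 for Mep1a, -0.069 for Mmp10, 0.086 for Mmp14, -0.34 for Mmp1a, -0.076 for Mmp24, -0.48 for Mmp8, 0.055 for Timp2, 0.14 for Timp3 and -0.44 for Tll1. As the mean of all probes of a gene they were 0.052 for Adam12, -0.13 for Adam1b, 0.013 for Adam5, 0.0024 for Adamts18, -0.20 for Adamtsl3 and -0.040 for Mmp1a. The deposited log ratio gave 0.15 for Adamts16, 0.0044 for Adamts18, -0.0057 for Mmp19, 0.13 for Mmp21, 0.23 for Mmp7, -0.32 for Mmp8 and -0.033 for Tll1, and the authors' series values gave 0.0044 for Adamts18, -0.0057 for Mmp19 and 0.13 for Mmp21. No background subtraction gave 0.011 for Mmp21. Array weights gave -0.072 for Adamts12, 0.12 for Adamts18, -0.22 for Adamts4, -0.18 for Adamtsl3, 0.029 for Mmp7 and -0.0014 for Tll1. Without probes holding telomere repeat letters the means were -0.0024 for Adamts12 and -0.51 for Adamtsl3. With 1 sample left out in turn, means ran from -0.17 to 0.040 for Adam12, -0.18 to 0.077 for Adam17, -0.0060 to 0.18 for Adam1b, -0.067 to 0.083 for Adam5, -0.25 to 0.56 for Adamts12, -0.25 to 0.17 for Adamts18, -0.44 to 0.66 for Adamts4, -0.23 to 0.042 for Adamts9, -0.37 to 0.68 for Adamtsl3, -0.11 to 0.36 for Mmp11, -0.19 to 0.13 for Mmp13, -0.027 to 0.17 for Mmp19, -0.10 to 0.052 for Mmp21, -0.027 to 0.19 for Mmp28, -0.14 to 0.038 for Mmp7, -0.18 to 0.041 for Mmp9, -0.068 to 0.18 for Plk1 and -0.0012 to 0.067 for Tll1.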
